A study of Drosophila melanogaster with 8 samples.

Results

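Between the genes of the fly genome, 280 sites carried the transcription factor Ribbon (Rib) in every list of peaks that the study deposited. They are the members described here. The study's highest-confidence list held 2198 regions of Rib bound to DNA, found by chromatin immunoprecipitation followed by sequencing (ChIP-seq). A region was a member when its midpoint lay outside every protein-coding gene and more than 500 bp from the nearest end of one. Of the other regions, 1306 had their midpoint inside a gene and 612 within 500 bp of a gene end. Members made up 12.7% of the list (Wilson 95% interval 11.4 to 14.2%), and they covered 120 kb in all.

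Rib is a nuclear protein with a BTB domain, which joins proteins in pairs or larger assemblies, and a DNA-binding domain of the Pipsqueak type. It is required in the embryo for the tubes of the trachea, the airway of the fly, and of the salivary gland to grow to their full length. Sites that lie between genes and away from promoters can hold enhancers, which act on genes at a distance, so the nearest gene is a neighbour and not a known target.

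A fusion of Rib and green fluorescent protein (GFP) was expressed in Drosophila melanogaster embryos from a UAS transgene, which is active in cells that make the yeast protein GAL4. GAL4 came from either btl-GAL4 or trh-GAL4, driver lines based on the tracheal genes breathless and trachealess. Chromatin came from whole embryos of stages 11 to 15 by the sample annotations, or 11 to 16 by the protocol, so cells outside the driver pattern are also in the extract. The btl-GAL4 group had 3 samples immunoprecipitated with a goat antibody to GFP, the trh-GAL4 group had 2, and 3 further samples were inputs (2 btl and 1 trh). All groups share the GAL4-driven transgene, and no immunoprecipitation without a GFP protein was analysed here. The titles and genotypes read UAS-GFP and the protocol reads UAS-rib-GFP. The protocol was followed, and under the other reading no value here would measure Rib.

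Replicates 1 and 2 of each driver were deposited as 1 joint peak list, called the btl list and the trh list below. The third btl sample, replicate 3, has a list of its own and was made with another library kit at another sequencing centre. All 2198 highest-confidence regions had exactly the bounds of the stretch shared by a btl, a trh and a replicate 3 region. A peak has 1 value per list, and only the replicate 3 value belongs to a single sample. No replicate error therefore exists, no difference below was tested, and read depth is unknown. The value used is the fold enrichment over background at the summit, the highest point of a peak, on a linear scale and as the authors' peak caller gave it. Wilson intervals, and order-statistic intervals of medians, cover counting error alone and treat regions as independent.

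Members were fewer than the space between genes would hold at an even spread. Bases more than 500 bp outside protein-coding genes made up 27.6% of the arms, against the 12.7% of highest-confidence regions that were members. Their density was 7.69 members per Mb of such sequence, while the whole list had 16.6 regions per Mb of the arms. Repeats and other bases that short reads cannot be placed on were not removed from the denominators.

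Within that space, members were densest close to genes. The median distance from a member to the nearest gene end was 2654 bp (interval 2170 to 3082 bp, n = 280), against 6460 bp for all between-gene bases. Between 500 and 1000 bp from a gene end lay 59 members, or 19.7 per Mb. Beyond 10000 bp lay 52, or 3.82 per Mb. The densities of the bins between these fell in order of distance, from 12.3 to 8.65 to 6.11 per Mb, as the plot of members per Mb shows. Between-gene regions of the btl list that were not in the highest-confidence list lay farther out, at a median of 4137 bp (interval 3810 to 4596 bp, n = 1173). In the trh list those left out lay at 2211 bp (interval 1578 to 3364 bp, n = 177), an interval that spans the members' median.

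**Figure D1:**
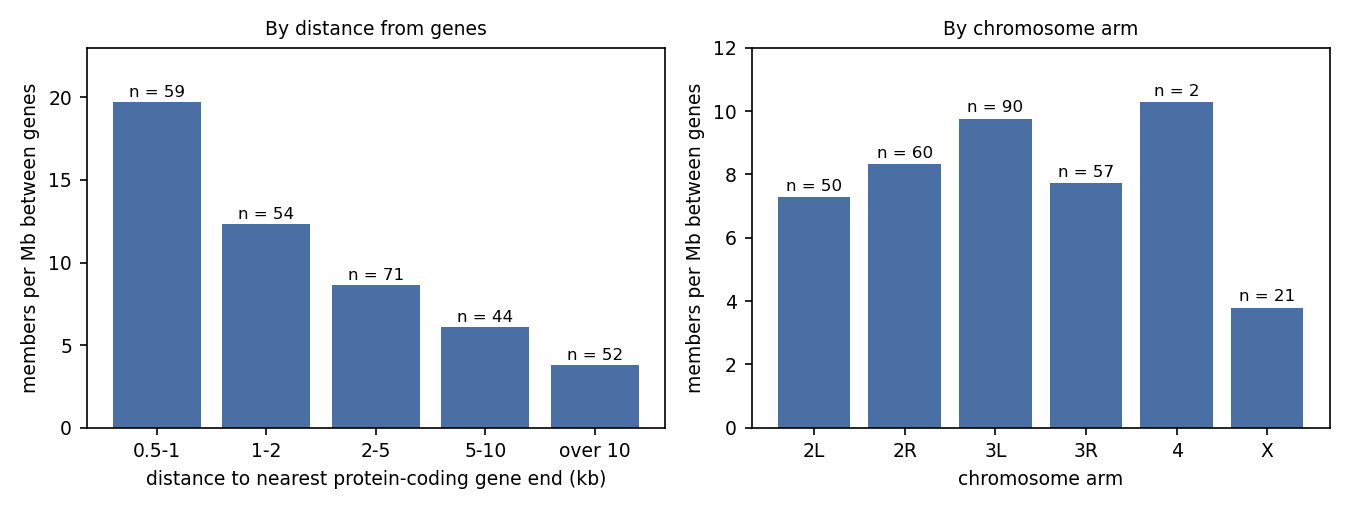
Members per Mb of sequence more than 500 bp outside protein-coding genes, by distance to the nearest gene end in kb (left) and by chromosome arm (right); n is the number of members in each bar. Density is 19.7 per Mb in the bin nearest to genes and 3.82 per Mb in the farthest, and the X chromosome has the lowest bar, at 3.79 per Mb.

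The X chromosome held few members. They made up 5.93% of its highest-confidence regions (21 of 354, Wilson interval 3.91 to 8.90%), against 14.0% on the other arms together (259 of 1844, interval 12.5 to 15.7%). The X had 3.79 members per Mb between genes, where 2L had 7.28 and 3L had 9.76, the highest of the large arms. Highest-confidence regions of all kinds numbered 15.3 per Mb of the X, against 16.6 over all arms and a range from 15.1 on 3R to 19.8 on 3L among the other large arms. The low share was present in each source list. Between-gene regions were 10.8% of btl regions on the X against 17.5% elsewhere, 7.85% against 15.4% in the trh list and 9.36% against 16.7% in replicate 3. The members on the X were not weak: their median btl, trh and replicate 3 fold enrichments were 3.70, 2.25 and 4.38, against 3.50, 2.17 and 4.06 for members on the other arms.

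Members shared peaks with each other, so they are not 280 separate events. They lay in 280 trh regions, 252 btl regions and 226 replicate 3 regions. In replicate 3, 90 members shared a region with another member, with up to 4 in 1 region. The value given for replicate 3 is that of the strongest summit of its region, which lay outside the member in 115 of 280. Members had a median width of 390 bp (interval 370 to 410 bp), and 225 of them, or 80.4%, had the exact bounds of the trh peak, against 80.0% of all highest-confidence regions.

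The strength of members was close to that of sites inside genes in all 3 lists, and above that of gene-end sites in the btl and trh lists by fold enrichment. Their median btl fold enrichment was 3.51 (interval 3.31 to 3.81, n = 280), that of sites inside genes was 3.40 (interval 3.29 to 3.54, n = 1306), and that of gene-end sites was 2.96 (interval 2.85 to 3.10, n = 612). Within the trh list the median percentile by fold enrichment was 52.6 for members (interval 46.0 to 57.0), 49.4 inside genes and 33.7 at gene ends. Replicate 3 gave median fold enrichments of 4.07, 4.08 and 4.00 in that order, with overlapping intervals. By the authors' -log10 q, a measure of confidence that also grows with read number, the trh order did not hold. The median percentile of members within the trh list was then 51.7, against 51.9 inside genes and 53.1 at gene ends.

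**Figure D2:**
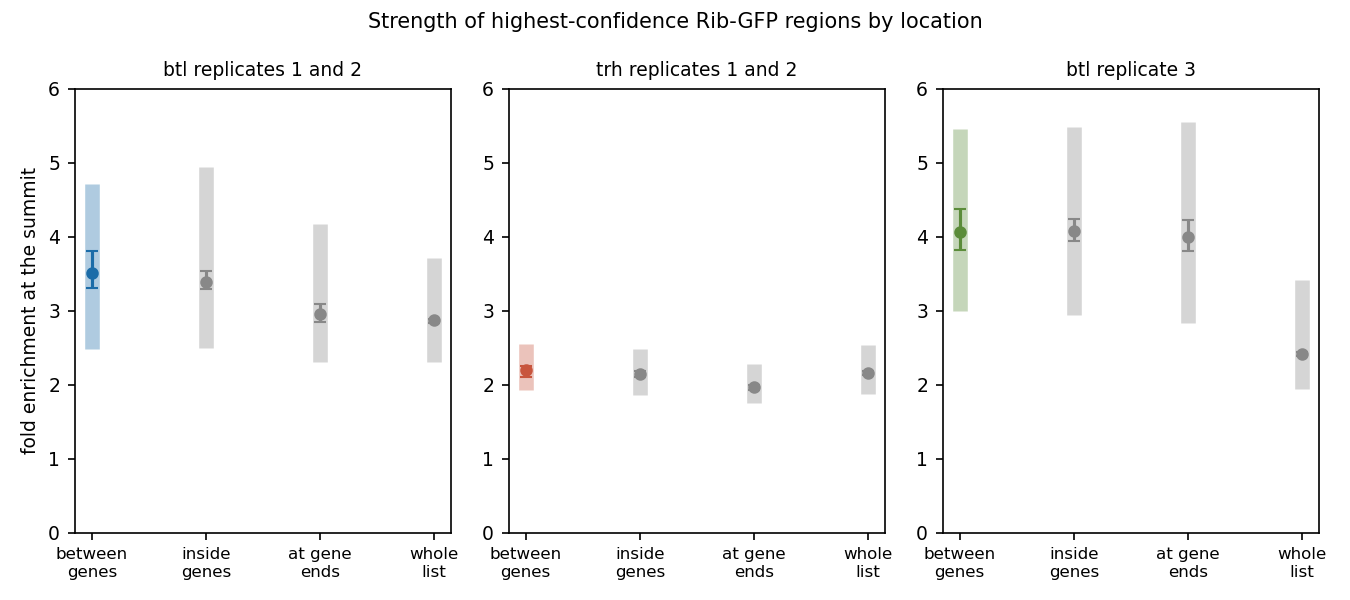
Fold enrichment at the summit in the btl list, the trh list and btl replicate 3, for highest-confidence regions between genes (280, coloured), inside genes (1306) and at gene ends (612), and for each whole list. Points are medians with 95% order-statistic intervals and broad bars span the quartiles; the between-gene medians are 3.51 in the btl list and 4.07 in replicate 3.

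Counted at the top of each list, 59 of the 280 members (21.1%, Wilson interval 16.7 to 26.2%) were in the upper 10% of the btl list by fold enrichment, a range that by definition holds 10% of all btl regions. The share was 22.0% over all highest-confidence regions, 25.4% inside genes and 15.2% at gene ends, so members were near the list-wide share. In the trh list 27 members (9.64%, interval 6.71 to 13.7%) reached the upper 10%, a share near the 10% of the whole list and the 8.96% of all highest-confidence regions. In replicate 3 the count was 104 (37.1%, interval 31.7 to 42.9%), and sites inside genes and at gene ends had nearly equal shares, 37.5% and 37.4%. Only the members at CHES-1-like and Gr93a were in the upper 10% of all 3 lists at once, 2 of 280 or 0.714% (interval 0.196 to 2.57%), against 1.41% of all highest-confidence regions. How the lists ranked the members depended on the measure. Across the 280 members Spearman's rho of fold enrichment was 0.333 between btl and trh, -0.126 between btl and replicate 3 and -0.158 between trh and replicate 3, as a description, since many members share replicate 3 regions. By -log10 q the same pairs gave 0.121, 0.252 and 0.294, so the sign of both replicate 3 values turned.

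Being between genes went with strength in opposite directions in the joint lists and in replicate 3. With each list divided into 10 bins by fold enrichment, between-gene regions made up 10.6% of the weakest btl bin and 18.0% of the strongest. The trh values were 7.79% and 15.6%. In replicate 3 the share was 17.0% in the weakest bin and 8.23% in the strongest. Replicate 3 differs from the joint lists in kit, in centre, in having its own input and in being 1 sample. It also differs in how the peaks were made. The authors joined replicates in the joint lists under a limit on irreproducible peaks, and the replicate 3 label names no such limit. In replicate 3 alone, summits with shared bounds were merged here, and the strongest gave the region's value. These differences cannot be told apart, and their part in the opposite directions was not tested.

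The share of btl peaks that reached the highest-confidence list was 17.5% between genes (249 of 1422, Wilson interval 15.6 to 19.6%), 25.2% inside genes (interval 24.0 to 26.5%) and 21.1% at gene ends (interval 19.6 to 22.7%). The trh list gave 61.2% (279 of 456, interval 56.6 to 65.5%), 71.6% and 65.3%. Replicate 3 gave 14.2% (224 of 1583, interval 12.5 to 16.0%), 19.6% and 16.5%. In all 3 lists the between-gene interval lay below that inside genes, and in the trh and replicate 3 lists it overlapped that at gene ends. Any shared base counts as overlap, and widths differed by location. Median widths of btl regions in the highest-confidence list were 871 bp between genes, 1069 bp inside them and 801.5 bp at gene ends. Those left out had 626, 673 and 597 bp. How width affects these shares was not tested. In the strongest bin of replicate 3, 69.0% of between-gene regions were in the highest-confidence list, against 2.31% in its weakest bin. The trh list went the other way, from 64.0% in its weakest bin to 52.0% in its strongest. The btl list had 22.8% in its weakest bin, 8.59% in its sixth and 32.1% in its strongest.

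**Figure D3:**
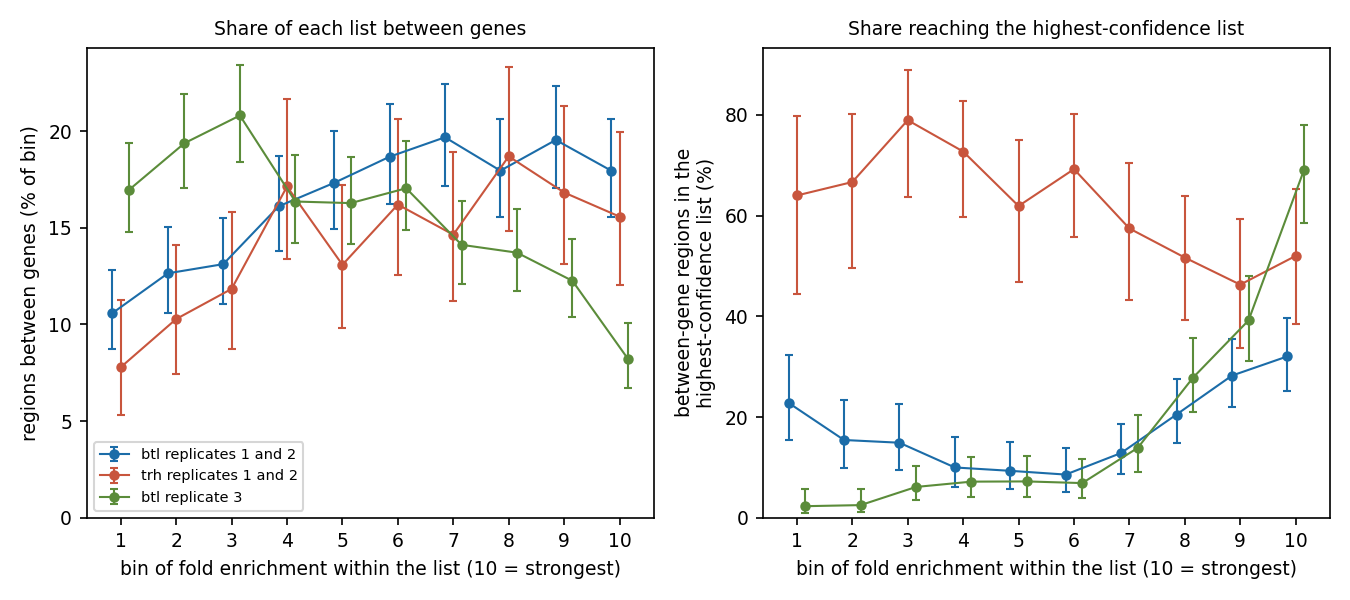
Left, the share of each list's regions that lie between genes, and right, the share of those between-gene regions that are in the highest-confidence list, each in percent by bin of fold enrichment within the list (bin 10 is the strongest). Points are shares with Wilson 95% intervals; the left share goes from 10.6 to 18.0% in the btl list and from 17.0 to 8.23% in replicate 3 between the end bins.

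The distance between btl and trh summits in members was like that over the whole highest-confidence list. Its median was 43 bp (interval 38 to 51 bp), against 45 bp over all 2198 regions, and it was 50 bp or less in 155 of 280 members (55.4%, Wilson interval 49.5 to 61.1%). That share was 53.0% over all regions, 49.5% inside genes and 59.2% at gene ends. To the nearest replicate 3 summit the median was 68 bp from the btl summit and 76 bp from the trh summit. With the strongest replicate 3 summit these were 95 and 134 bp. All 3 summits lay within 100 bp of each other in 135 members (48.2%, interval 42.4 to 54.1%), against 39.2% inside genes (interval 36.6 to 41.9%) and 42.5% at gene ends (interval 38.6 to 46.4%). The members' interval lay above the first of these and overlapped the second.

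Like most highest-confidence regions, most members lay in replicate 3 regions with several summits. In 187 of 280 (66.8%, Wilson interval 61.1 to 72.0%) the replicate 3 region had 2 or more summits, against 65.9% of all highest-confidence regions. That share was 73.0% for sites inside genes, 50.5% for gene-end sites and 35.1% over all replicate 3 regions. A replicate 3 region can hold several members, each counted here. How this affects the members' share was not tested. Counted inside the member itself, 2 or more replicate 3 summits were present in 8 of 280 (2.86%, interval 1.45 to 5.54%), against 5.14% of all highest-confidence regions. There was none in 36 (12.9%, interval 9.43 to 17.3%), against 14.7% of all.

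The 12 strongest members, by mean percentile of fold enrichment over the 3 lists, show how different the neighbours are. First was a member 717 bp from CHES-1-like, a gene of the forkhead transcription factor family (X, 7709892 to 7710313), with fold enrichments of 6.75 (btl), 3.01 (trh) and 8.16 (replicate 3). Values are given in this order from here on. The second lay 4280 bp from CG9095 (X, 15167237 to 15167774), with 8.21, 3.80 and 4.37. Both exceeded the whole-list medians of 2.87, 2.16 and 2.42 in the 3 lists, as did the other 10. Their choice by mean percentile fixed this in advance.

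The neighbours of 3 of the 12 are described next for their known roles, none of them being in the tracheal gene list used below. Np encodes a membrane-anchored serine protease that acts on the matrix inside tracheal tubes. A member lay 1642 bp from it, in the gap it shares with the serine protease gene flz (2R, 8991065 to 8991542), with fold enrichments of 4.87, 3.04 and 6.05. The gene ich encodes a zinc-finger transcription factor that regulates genes of the apical matrix of the trachea, and the strongest of 3 members between it and CG11964 had 5.32, 2.69 and 5.34 (3R, 8947731 to 8948100). Cda4 belongs to the chitin deacetylase family, enzymes that modify chitin. The member 1493 bp from it (X, 22633971 to 22634436) had 7.65, 2.61 and 5.52.

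The other 7 had neighbours of other or unknown roles. They were CG7330, CG12535, CG13631, jp (a junctophilin), CG2772, the gustatory receptor gene Gr93a and CG4815. Their btl fold enrichments ranged from 4.26 at jp to 9.11 at CG4815, and their trh values from 2.64 at CG2772 to 3.81 at CG4815. CG4815 is also the member nearest to the 500 bp limit, and would be a gene-end site with a window 1 bp wider. Of the 12, 4 lay on the X, the chromosome with few members.

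**Figure D4:**
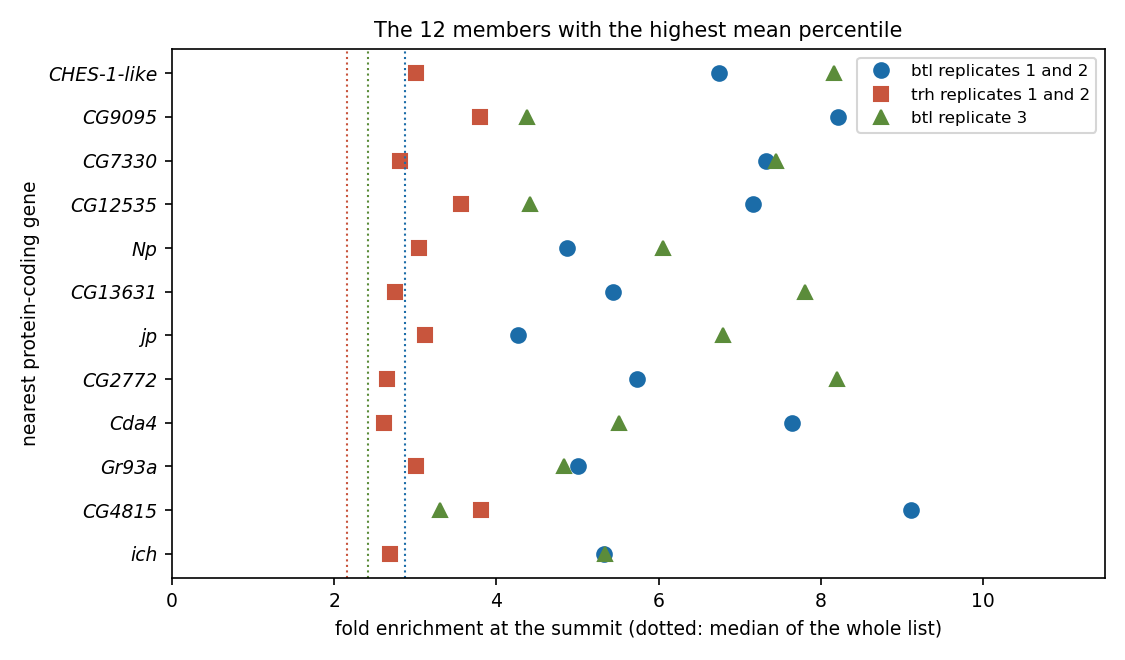
Fold enrichment at the summit in the btl list (circles), the trh list (squares) and btl replicate 3 (triangles) for the 12 members with the highest mean percentile, named by the nearest protein-coding gene. Dotted lines are whole-list medians (2.87, 2.16 and 2.42). Every symbol lies to the right of its own line, which the choice by mean percentile fixed in advance.

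Genes of tracheal development were the nearest gene for 12 of 280 members (4.29%, Wilson interval 2.47 to 7.34%). The list had 24 matched genes, and for 0.915% of between-gene bases one of them was nearest. Of sites inside genes 0.689% (interval 0.363 to 1.30%) were nearest to an end of a listed gene, and of gene-end sites 0.327% (interval 0.0897 to 1.18%). The 12 members lay at 6 genes: 5 at trh, 3 at vvl, and 1 each at salm, kni, peb and sty. The 5 at trh came from 4 replicate 3 regions, and a pair at vvl shared 1. Among all genes, CG6163 was nearest to the most members, 6, and CG43245, Fmr1 and chinmo had 5 each, as trh did. The btl gene itself, the other driver gene, had none. A listed symbol, dys, was not counted because it is a synonym of more than 1 gene in the table. One of these, dysf, a bHLH-PAS gene of tracheal fusion cells, was nearest to 1 further member, at 666 bp (3R, 26099247 to 26099508), with fold enrichments of 4.39, 2.27 and 3.43.

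The gene trh encodes the bHLH-PAS factor that sets tracheal identity. Its 5 members lie in the 40.5 kb gap between trh and CG13891 on 3L. The one at 409819 to 410308, 17430 bp from trh, had 9.42, 2.49 and 3.82. Its btl value was the highest among all members. A pair 2523 and 3040 bp from the gene shared 1 btl region with a value of 7.73 and had trh values of 2.54 and 2.48. The remaining 2 had btl values of 4.49 and 2.52. DNA that a trh-GAL4 driver may share with this locus cannot be told apart from the native gene here. By its genotype the btl group carries btl-GAL4.

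The gene vvl encodes a POU-domain transcription factor needed for tracheal cells to migrate. A pair of its members lay 12007 and 12813 bp away, between vvl and Rsph3, in 1 btl region with a value of 4.42, and had trh values of 1.89 and 2.24. The third lay 40103 bp from vvl in the 117 kb gap to Prat2 and was weaker, with 2.66, 1.73 and 3.53. The same gap held the member farthest from any gene end (3L, 6853726 to 6854192), 58040 bp from Prat2, with 4.32, 2.39 and 5.83.

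The remaining tracheal neighbours encode regulators of branches or of the tracheal epithelium. The member at salm, a zinc-finger gene of the dorsal trunk, lay 23143 bp away toward its relative salr, with fold enrichments of 6.07, 2.86 and 2.88. The member at kni, a nuclear receptor gene of branch identity, lay 5664 bp away with 4.15, 2.92 and 3.19, and its btl and trh summits were 1 bp apart. At peb, which keeps the tracheal epithelium intact, the values were 4.15, 2.73 and 2.11. At sty, an inhibitor of FGF signalling that limits branching, they were 3.84, 1.70 and 4.62. All 4 exceeded the btl whole-list median. The sty member was below the trh median, and the peb member was below that of replicate 3.

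Members were frequent beside genes of BTB transcription factors, the class Rib belongs to. One of 14 matched genes was nearest to 11 of 280 members (3.93%, Wilson interval 2.21 to 6.90%), against 0.279% of between-gene bases, 1.38% of sites inside genes (interval 0.874 to 2.17%) and 0.163% of gene-end sites (interval 0.0288 to 0.920%). They lay at 4 genes: 5 at chinmo, 4 at psq, and 1 each at bab2 and rib. Counted by replicate 3 region the 11 came from 6, since the members at chinmo shared 2 regions and 3 of those at psq shared 1. Sites inside genes reached more of the list: 18 of them lay at 11 of the 14 genes.

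The gene chinmo encodes a BTB zinc-finger protein that marks early-born neurons. The 37.1 kb gap between RFeSP and chinmo on 2L held 6 members, 5 of them nearer to chinmo. Their trh fold enrichments all exceeded that list's median of 2.16. The highest trh value was 1352 bp from chinmo (2L, 1649626 to 1650187), at percentile 97.1. Their btl values ran from 1.63 to 4.50. The member with a btl value of 1.63 (2L, 1648629 to 1649143) stood at percentile 2.12 of btl regions and percentile 85.2 of trh regions, the largest such gap in that direction among all members.

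The psq gene encodes Pipsqueak, the protein that gave its name to the DNA-binding domain of Rib. Its 4 members lay within 3660 bp of psq in the gap to lola, another BTB gene, on 2R. Their btl values were 3.09, 3.58 and, for a pair in 1 btl region, 4.82. The replicate 3 values were 5.68 for the first and 7.15 for the other 3, the latter at percentile 98.5 of that list. The last members of the BTB group are named after their values were seen, as are the first and last at psq. At rib itself 1 member lay 3735 bp away (2R, 19266168 to 19266519), with 2.61, 1.78 and 7.31, at percentile 98.7 of replicate 3 and 17.2 of the trh list. At bab2 the values were 1.92, 1.46 and 3.36.

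The other gene lists were near few members. Homeobox and patterning genes were nearest to 4 of 280 (1.43%, Wilson interval 0.557 to 3.61%), against 2.64% of between-gene bases. These lay at hry (the repressor gene hairy) with 2, and at the Hox gene Ubx and at zfh2 with 1 each. The Ubx member had fold enrichments of 5.07, 2.46 and 2.51. The cuticle protein list also holds the cuticle-associated Osiris (Osi) genes. Its genes were nearest to 4 members (1.43%, Wilson interval 0.557 to 3.61%, against 0.697% of bases). These lay at Cpr35B with 2 and at the Osiris genes Osi8 and Osi11 with 1 each. Signalling ligand genes were nearest to 2 (0.714%, against 0.663% of bases), both at the EGF receptor ligand gene vn in 1 btl region and 1 replicate 3 region. One of these was 22 bp long, the only member under 50 bp.

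For salivary gland genes the count was 1 (0.357%, against 0.611% of bases). It lay at CrebA, which encodes an activator of secretory pathway genes, with btl and trh values of 1.79 and 1.52. The count was 0 with gene ends of 1000 bp and 3 when either flanking gene counted. Cytoplasmic ribosomal protein genes, the subject of the study's title, were nearest to 0 of 280 members (upper Wilson bound 1.35%), against 0.815% of between-gene bases, and flanked 1 member when either flanking gene counted. In the same highest-confidence list they were nearest to 15 of 612 gene-end sites and to 0 of 1306 sites inside genes. A site inside a gene lies more than 500 bp from its ends. A short gene such as RpLP1 (2L, 419952 to 420864) cannot hold one, so the 0 is in part set by the definition.

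Members lay in 187 gaps between protein-coding genes, of 3591 gaps longer than 1000 bp. In 52 of these gaps there were 2 or more, so that 145 of 280 members (51.8%) shared a gap. When 1 highest-confidence region of any location was kept per replicate 3 region, 215 members remained, and 31.6% of them shared a gap. This choice was made after seeing the data. Gaps with a member had a median length of 12.3 kb, against 4.28 kb for all gaps over 1000 bp. Per Mb, short gaps held more: 18.7 members per Mb in gaps of up to 5 kb and 2.31 per Mb in gaps over 50 kb.

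The 3 fullest gaps had 6 members each, and the maps of these gaps show different layouts. In the gap between NijA and CG43245 on 3L, 4 members stood within 1 replicate 3 region (value 7.05, 7 summits), from 31602 to 34619 bp from the nearest gene end. Their btl values ran from 2.08 to 3.04, 3 of the 4 below the whole-list median of 2.87. The gap between RFeSP and chinmo had its members in 3 replicate 3 regions, with a pair next to chinmo. In the 26.0 kb gap between Alp13 and Fmr1, the gene of the RNA-binding protein FMRP, the members ran over 11.9 kb from the middle of the gap toward Fmr1, in 2 replicate 3 regions. Their btl values ran from 2.16 to 3.69, and 5 of the 6 were within 500 bp of a long non-coding RNA gene.

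**Figure D5:**
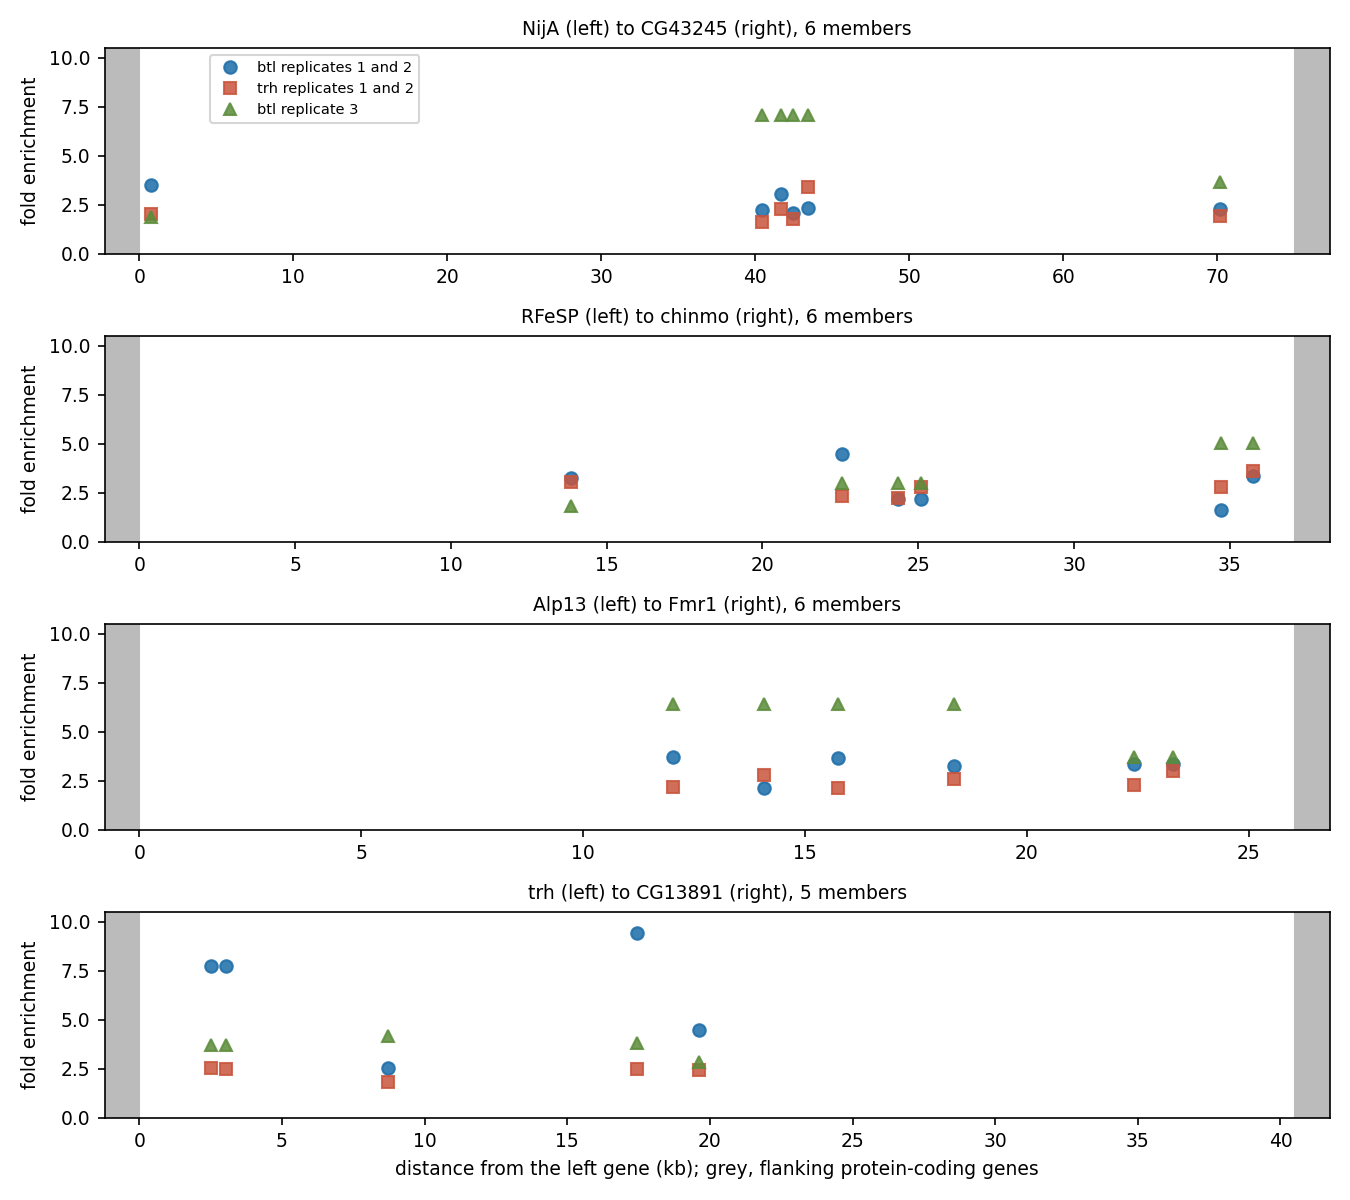
Fold enrichment of each member in the btl list (circles), the trh list (squares) and btl replicate 3 (triangles) against distance in kb from the left gene, for the 3 gaps with 6 members and for the gap beside trh with 5. Equal triangles in a row are members of 1 replicate 3 region; the btl values beside trh reach 9.42.

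Non-coding genes did not count in the rule, and 61 of 280 members (21.8%, Wilson interval 17.4 to 27.0%) lay inside or within 500 bp of one, against 10.9% of between-gene bases. In 41 the midpoint was inside. Most were long non-coding RNA genes, with 52 members (18.6%, interval 14.5 to 23.5%, against 9.46% of bases). The strongest of these lay at lncRNA:CR44999 near CG12535 (X, 3451261 to 3451512), with fold enrichments of 7.16, 3.57 and 4.41.

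MicroRNA genes were within 500 bp of 4 members (1.43%, Wilson interval 0.557 to 3.61%), against 0.160% of between-gene bases. These were mir-14, mir-317, mir-282 and mir-279, each a precursor of a small RNA that lowers the output of matching messenger RNAs. The member at mir-317 overlapped the microRNA gene (3R, 10091126 to 10091217) and is the third in the gap beside Fmr1, with 3.67, 2.15 and 6.39. The other 3 did not overlap theirs, and 202 bp at mir-279, 408 bp at mir-14 and 437 bp at mir-282 separated the midpoint from the gene. Their btl values lay between 2.80 and 3.20. A long non-coding RNA gene was also within 500 bp at each of these 3.

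Transfer RNA genes were within 500 bp of 4 members (1.43%, against 0.239% of bases). One member, named after its values were seen, overlapped 3 of them, for initiator methionine and glutamate (2R, 19725587 to 19726250), with fold enrichments of 3.64, 2.25 and 3.96. Another, close by in the same replicate 3 region, overlapped a glutamate tRNA gene and snoRNA:185 and had 3.58, 3.15 and 3.96. Reads from tRNA genes with near-identical copies can be placed at the wrong copy, so these values are uncertain.

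The btl and trh lists ranked some members differently, and those below were chosen for that difference. The largest excess of btl over trh was 13523 bp from CG43149 (3L, 39980 to 40720), at percentiles 89.6 and 0.514. A member 1823 bp from the cuticle protein gene Cpr35B (2L, 14422143 to 14422842) had btl and trh fold enrichments of 5.35 and 1.78, at percentiles 92.9 and 17.5. In the opposite direction, after the chinmo member above, a member 2361 bp from NimC3 had 2.07 and 3.50, at percentiles 14.4 and 96.2. Its btl and trh summits were 736 bp apart. At Cpr35B the summits were 12 bp apart.

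The 3 members just past it, at CG4815, mRpL49 and CG32260, lay at 501, 505 and 512 bp from the gene end, with btl fold enrichments of 9.11, 2.32 and 5.40. The 3 regions just short of it, at Hsc70-3, DCTN1-p150 and Paics, lay at 498, 492 and 490 bp, with 4.55, 4.19 and 2.83.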

How the data were processed

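Per the submitters' processing notes, Bowtie2 (2.3.4.3 and 2.3.4.1), SAMtools (1.9 and 1.7), Picard, MACS2 2.2.4, bedtools and CASAVA 1.8.2 were used on dm6 (Release 6), with no role or order given. The 4 files have no headers. The deposited ratio column was read as fold enrichment and the deposited -log10 column as q-values, from the narrowPeak layout. The deposited score column was not used. Replicates 1 and 2 of each driver were joined by the authors at an irreproducible discovery rate of 0.1, named in the labels.

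The RefSeq Release 6 gene table (13922 protein-coding genes on 6 arms, no strand, transcripts or exons) gave gene bounds, and coordinates are 1-based. Python 3.11.15, pandas 2.3.3 and scipy 1.17.1 were used. Lines off the arms were dropped (6 of replicate 3), and the 17155 replicate 3 summits were merged by shared bounds into 10205 regions. The strongest summit stood for a region, overlap meant 1 bp, and percentiles were taken within a list. Location code was checked on made-up coordinates. Members named were the 12 strongest, the 5 farthest from genes, those in the 3 fullest gaps, at microRNAs, the 5 strongest at other non-coding genes, all at tracheal genes and the 3 strongest for each other list, those at the 500 bp limit and with the largest rank differences. Members and gene lists were chosen with earlier results of these data known. Listed symbols dys, pfk and Dl matched no current symbol and were not counted. The table has each as a synonym of more than 1 gene (dys of dysf, Dl of Delta, among others). No sequence was used here.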

Additional observations from a re-analysis of the deposited data

How the results depend on the processing

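No paired analysis was possible because the lists join replicates 1 and 2 and hold no value for a single one. Leaving out replicates 1 or 2 was therefore not run, and the motif search was not run without a genome sequence. Without btl replicate 3 there were 337 members among the shared btl and trh stretches (13.9%), with median percentiles of 66.4 and 56.3, and each value stayed within its interval or, for the number, within 1.5 times. Of 64 recomputed main values, 46 stayed within their interval or within 1.5 times their count. The share of members was 15.0% with gene ends of 250 bp, 10.1% with 1000 bp and 9.96% when non-coding genes counted, and the median distance was 2026, 3852 and 1806 bp. With non-coding genes 41.1% of members shared a gap. With 1 highest-confidence region kept per replicate 3 region, a choice made after seeing the data, 31.6% did, at a median replicate 3 percentile of 79.5. Members numbered 113 under a reciprocal overlap of 50%, 95 (15.3% of regions) in the upper 50% of each list by fold enrichment and 113 by -log10 q. By -log10 q the median btl percentile was 79.4. With the replicate 3 summit nearest to the midpoint its median percentile was 79.1, at 68 bp from btl and 76 bp from trh summits. Counting replicate 3 summits inside the member gave 2.86% with several. The cause of these moves was not tested. Members nearest to salivary gland genes went from 1 to 0 (gene ends of 1000 bp) or 3 (either flanking gene), and to ribosomal protein genes from 0 to 1 (either). With peak lists alone, depth limits which weak sites were called, and by how much is unknown.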

Other observations

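A pair of nearby gaps, beside the Polycomb group genes Psc and Su(z)2, held 5 members, named after their values were seen. A further gap, between CG33798 and Su(z)2, separates them. Polycomb group proteins keep developmental genes silent. The members lay on 2R, 2 between Psc and CG33798 and 3 between Su(z)2 and CG13323. In replicate 3 their fold enrichments were 7.13 for the first pair, 4.72 for the second pair and 4.65, at percentiles from 89.5 to 98.4. In the btl list they ran from 1.64 to 2.34 (percentiles 2.26 to 26.2) and in the trh list from 1.59 to 2.03. All 5 were thus high in replicate 3 and low in both joint lists.

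The highest replicate 3 value among members was 10.9, in the 6.79 kb gap between NimC3, a gene of the Nimrod receptor family, and hll. It belongs to 1 region that holds 4 of the 5 members there, with btl values from 2.07 to 3.07 and trh values from 2.15 to 3.50. The highest trh value, 5.78, lay 3720 bp from CG33687 (3L, 16193932 to 16194365), where the btl value was 3.99 and the replicate 3 value 2.13. These too were chosen for their values.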
